A study of Glycine max with 10 samples.

Results

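The window examined here is a stretch of soybean chromosome 13, taken as all rows whose identifiers run from Glyma.13G180000 to Glyma.13G200000 in identifier order. It is the stretch that holds the resistance gene cluster near Rag2, a soybean locus for resistance to the soybean aphid. The window held 201 rows. Of these, 128 were retained because at least 1 library had over 0.5 CPM (a gene's counts scaled to 1000000 counts in the library). In the whole series 37468 of 55983 rows were retained. The remaining 73 were left out, 30 of them with 0 counts in every library.

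The libraries were prepared from soybean leaves in a greenhouse study of induced susceptibility, in which a first population of aphids on a plant (the inducer) is followed by a second one (the response). The resistant cultivar LD12-15813Ra, which carries the Rag1 gene, was set beside the susceptible cultivar LD12-15838R. The inducer treatment was 50 biotype 2 aphids, a biotype virulent on Rag1 plants, followed by 15 biotype 1 aphids, which are avirulent. This treatment has 4 libraries, 1 for each cultivar at day 11 and at day 1. A further treatment, 15 biotype 1 aphids alone, has 1 library for each cultivar, both of day 11. The aphid-free controls have 4 libraries, again 1 for each cultivar and day. RNA from 3 replicates was pooled into each library, which leaves 1 library per condition, and a difference between single conditions therefore has no replicate check. Plant age is given as not applicable, and no batch or sequencing date is given in the sources used here.

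Rag loci restrict the growth of soybean aphid colonies on the plant. The part of chromosome 13 around Rag2 is known as a cluster of NBS-LRR genes, which encode intracellular receptors that recognise products of pests and pathogens and start a defence response. Rag1, the locus named for the resistant cultivar, lies on another chromosome. Because 0 of the 128 identifiers matched the gene table at hand, no gene in the window is given a name or a role, genes are given by identifier only, and the leaf label was not checked against marker genes. No sequences were at hand for these identifiers.

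Totals of estimated counts lay between 23394065 and 25665558 per library, so that 3 counts correspond to 0.117 to 0.128 CPM, counting error only. Over all 37468 retained genes, the libraries did not sort by labelled cultivar. Only 53 genes (0.141%) had no overlap between the 5 libraries labelled resistant and the 5 labelled susceptible. By contrast, 3527 genes (9.41%) had no overlap between the libraries of resistant, day 11 and susceptible, day 1 on one side and those of susceptible, day 11 and resistant, day 1 on the other. The library labelled resistant, control, day 1 stood apart, with a TMM factor of 0.772, the lowest of 10. TMM (trimmed mean of M values) is a scaling that adjusts a library total for composition, and the highest factor was 1.15 in the library labelled resistant, inducer, day 1. The reason for either pattern was not tested, and libraries are named below by the labels they carry.

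Transcripts were detected along most of the window. The retained share of rows was 63.7% in the window and 66.9% over all rows. In 4 consecutive segments of the window, 34 of 50, 30 of 50, 30 of 50 and 34 of 51 rows were retained. The longest run of rows left out held 7 identifiers, Glyma.13G185600 to Glyma.13G186200. The first retained gene, Glyma.13G180100, had 8.74 to 17.2 CPM and the last, Glyma.13G200000, had 1.5 to 5.3 CPM. At the threshold itself, Glyma.13G196200 was retained with a highest value of 0.673 CPM, and Glyma.13G182400 was left out with 0.468 CPM. Glyma.13G196200 was also the 1 gene retained through a single library, the one labelled resistant, inducer, day 1. In contrast, 105 of the 128 genes (82.0%, against 77.2% of all retained genes) exceeded 0.5 CPM in all 10 libraries.

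**Figure D1:**
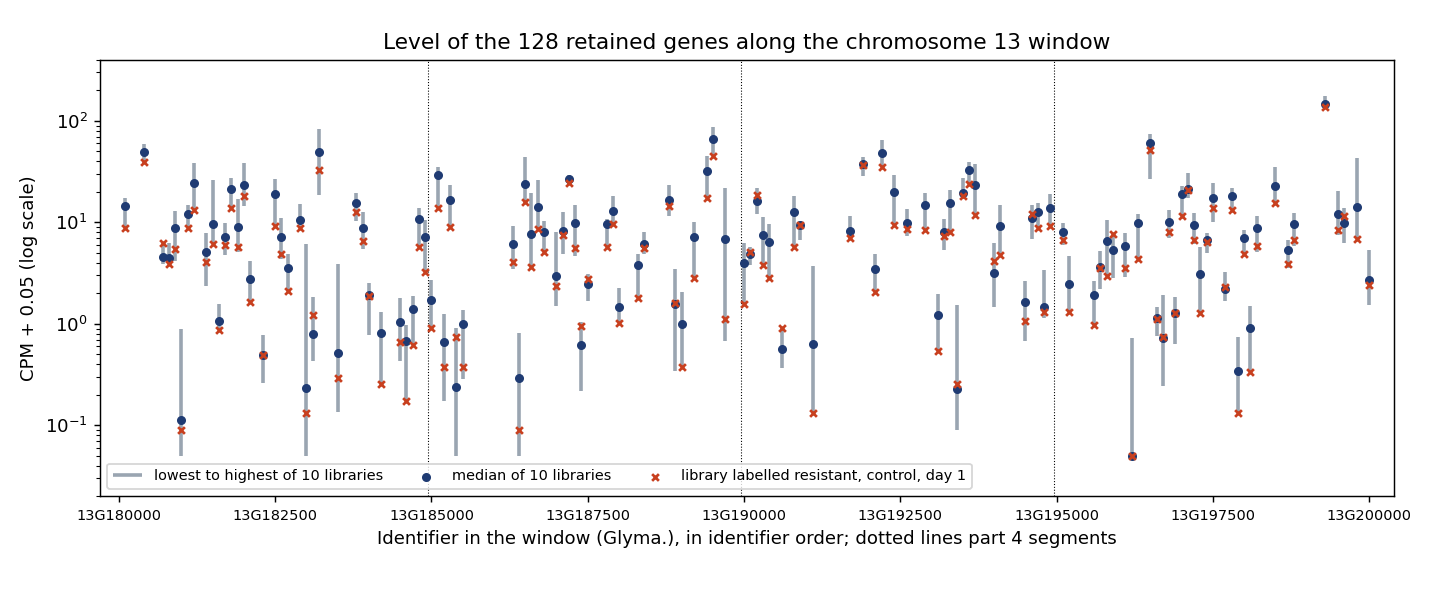
Level of each of the 128 retained genes along the window in identifier order, on a log axis of CPM + 0.05. Bars run from the lowest to the highest of 10 libraries, dots are medians, crosses mark the library labelled resistant, control, day 1, and dotted lines part the 4 segments; the cross is the lowest value for 58 genes.

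Levels in the window were close to those of the whole table. The median over genes of the mean CPM was 7.73 in the window and 7.54 over all retained genes. Mean CPM was under 1 for 18 genes, between 1 and 10 for 65, between 10 and 50 for 42, and above 50 for 3. CPM is not corrected for transcript length, so these means do not order the genes by abundance per length.

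The 10 genes with the highest mean CPM were spread over the window. Glyma.13G199300, near its end, averaged 149.8 CPM over the 10 libraries, with a lowest value of 132, a median of 147 and a highest of 174. It was also among the steadiest genes, with a 1.32-fold range of CPM + 0.5. Glyma.13G189500 averaged 67.2 CPM and Glyma.13G196500 averaged 58.1 CPM. The other members of this set had means between 27.2 and 49.5 CPM and were Glyma.13G192200, Glyma.13G180400, Glyma.13G183200, Glyma.13G191900, Glyma.13G189400, Glyma.13G193600 and Glyma.13G185100. The steadiest gene, named after its values were seen, was Glyma.13G187200, with 23.4 to 29.3 CPM and a 1.25-fold range.

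Differences past 4-fold between libraries took a smaller share of the window than of the whole table, which is given here as a description with no test. The range over the 10 libraries exceeded 4-fold in 10 window genes (7.81%), against 17.9% of all retained genes. It stayed under 2-fold in 44 window genes (34.4%), against 29.4% of all. The median range was 2.34-fold in the window and 2.40-fold over all retained genes. Of the 10 genes past 4-fold, 8 lay before Glyma.13G190000. No window gene had its libraries parted by a gap of at least 8-fold, a pattern that 96 of all retained genes showed (0.256%). The largest gap was 3.46-fold in Glyma.13G183000, with only the library labelled resistant, inducer, day 1 above it, and the next was 2.92-fold in Glyma.13G189700.

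With plain library totals, the library labelled resistant, control, day 1 was low along the whole window. Its summed CPM over the 128 genes was 1081, the lowest of 10, and the highest sum was 1745 in the library labelled resistant, inducer, day 1. The same 2 libraries were lowest and highest in each of the 4 segments. The library labelled resistant, control, day 1 gave the lowest value of 58 window genes (45.3%), against 34.4% of all retained genes, and the library labelled resistant, inducer, day 1 gave the highest of 35 (27.3%), against 20% of all. With TMM library sizes, a scaling added after the values were seen, the sums lay between 1400 (again resistant, control, day 1) and 1532 (susceptible, inducer, day 11), so most of the gap between the libraries depended on the scaling. The library labelled resistant, control, day 1 was then the lowest for 37 window genes (28.9%), against 17% of all. The part of these libraries in the results of day 1 was not tested apart from the fits without them given below.

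The first comparison addressed whether the cultivars differed. Over both days, no window gene (0 of 128) had values without overlap between the 5 libraries labelled resistant and the 5 labelled susceptible, against 0.141% of all genes. The fold change averaged over the days was within ±0.5 on the log2 scale for 117 of the 128 genes. edgeR's quasi-likelihood test, fitted on all 37468 genes and 10 libraries with terms for cultivar, day, their interaction and treatment, called 0 window genes and 0 genes in all (0%). It had 1 window gene at an unadjusted p under 0.05 (0.781%, against 1.64% of all genes), and 13 (10.2%, against 16.6% of all genes) without the library labelled resistant, inducer, day 1. DESeq2 called 0 window genes and 7 genes in all (0.0187%). The smallest p belonged to Glyma.13G183100 (log2 fold change 1.05, standard error 0.34, edgeR adjusted p = 1), followed by Glyma.13G181000 (log2 fold change 2.69, SE 1.17) and Glyma.13G181500 (log2 fold change -0.57, SE 0.26). Glyma.13G181000 exceeded 0.5 CPM only in resistant, biotype 1 alone, day 11 (0.8329 CPM) and resistant, inducer, day 1 (0.8415 CPM). It was thus retained only through libraries of its high side, so its difference is description and not support.

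Within day 11 the cultivar labels parted more genes. The 3 libraries labelled resistant did not overlap the 3 labelled susceptible in 39 window genes (30.5%), against 39.8% of all retained genes. Of the 39, 29 were higher and 10 lower in the libraries labelled resistant, against 8591 higher and 6335 lower among all retained genes. With TMM library sizes there were 42 (32.8%, against 40.9% of all), of which 24 were higher and 18 lower. The share in the window was below that of the whole table under both scalings, and the split depended on the scaling.

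Tests of the day 11 difference depended on the fit. With all 10 libraries, edgeR called 0 window genes at an adjusted p of 0.05 and 130 genes in all (0.347%), although 23 window genes (14 higher and 9 lower in resistant; 18%, against 25.8% of all genes) had an unadjusted p under 0.05. DESeq2 called 13 (9 higher, 4 lower), beside 14.3% of all genes. Within the 6 libraries of day 11 alone, edgeR called 12 (6 higher, 6 lower), beside 14.2% of all. Without the library labelled resistant, control, day 1 it called 16, beside 15.5% of all, and without the library labelled resistant, inducer, day 1 also 16, beside 15.6% of all. The called share of window genes, 9.38% within day 11 and 12.5% without resistant, control, day 1, was in no case above that of the whole table. These fits share their day 11 libraries and are not independent of each other.

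Of all alternatives run, these 4 fits were the only ones that called any window gene at day 11. Agreement among them is therefore not support for a gene. Of 17 window genes called at day 11 in any of the 4, 9 were called in all of them. The matching counts over all genes were not computed, so 17 and 9 are not a result about the window. Relative to the libraries labelled susceptible, 5 of the 9 were higher and 4 lower in the libraries labelled resistant. By segment of the window, the 9 numbered 3, 4, 1 and 1 and the 17 numbered 6, 6, 4 and 1, with no test. For the interaction test given below, genes called in any fit numbered 8, 7, 6 and 5. Neighbours went opposite ways: Glyma.13G181400 was higher and the next identifier, Glyma.13G181500, was lower.

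**Figure D2:**
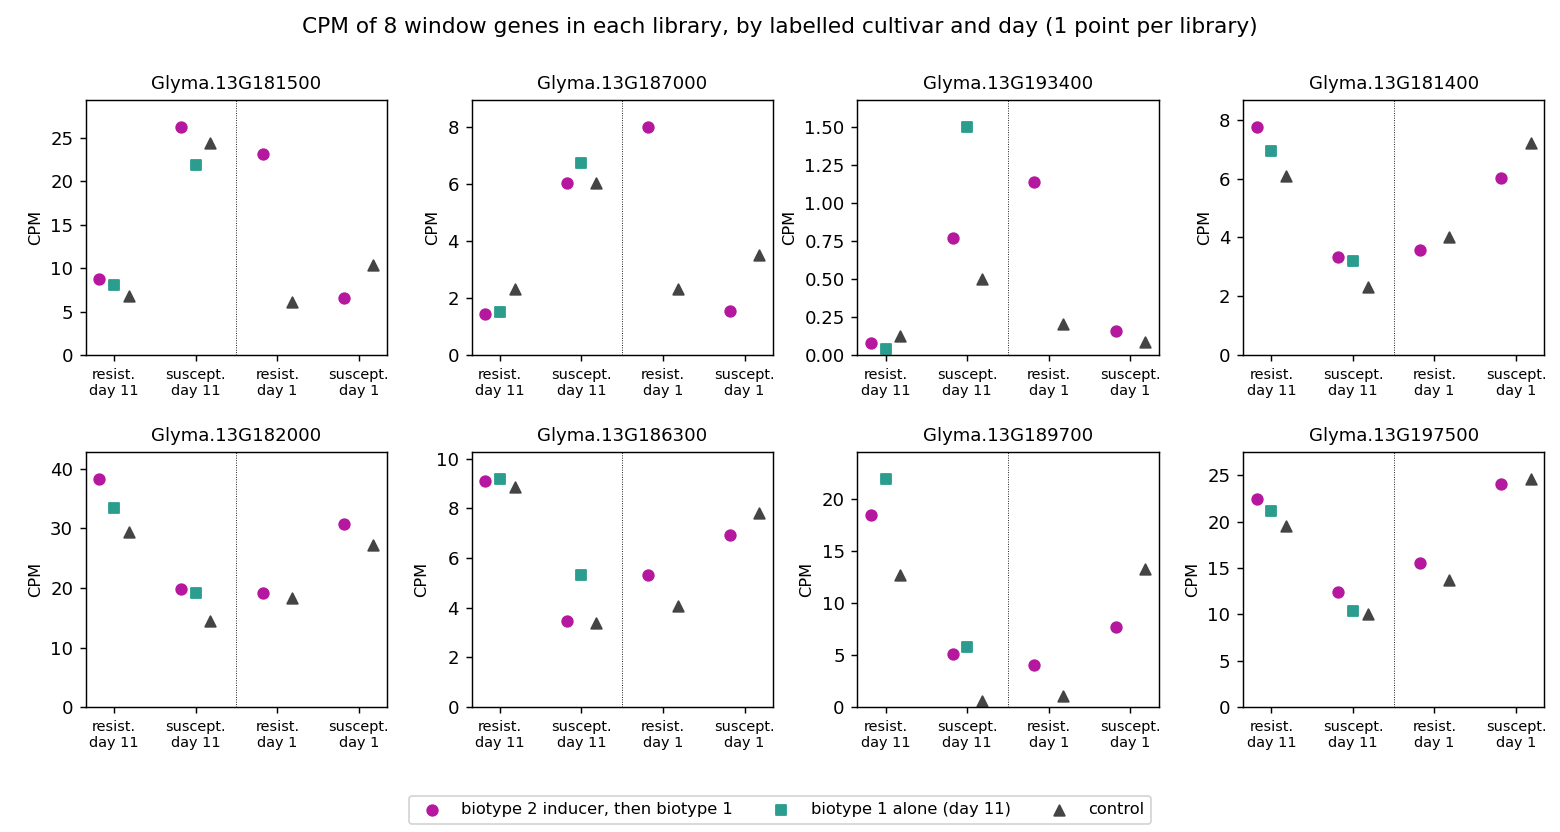
CPM of 8 of the 9 window genes called at day 11 in all 4 alternative fits that called any window gene. There is 1 point per library on linear axes from 0, with day 11 left and day 1 right of the dotted line and symbols for treatment. In the upper row, Glyma.13G181500, Glyma.13G187000 and Glyma.13G193400 are low in resistant, day 11, and the other 5 genes are high there and, at day 1, lower in resistant than in susceptible.

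Glyma.13G181500 had 8.77 (inducer), 8.01 (biotype 1 alone) and 6.76 CPM (control) in the libraries labelled resistant, day 11, against 26.2, 21.9 and 24.4 CPM in those labelled susceptible, day 11. The groups lay far apart whatever the treatment. Within day 11 its log2 fold change was -1.77 (SE 0.18, edgeR adjusted p = 0.00797), and with all 10 libraries it was -1.77 (SE 0.34, edgeR adjusted p = 0.0775), which did not pass. At day 1 it had 23.2 (inducer) and 6.14 CPM (control) in resistant, against 6.54 and 10.4 CPM in susceptible, so only the resistant inducer library stood with the high group.

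Glyma.13G187000 took the same shape at a lower level. It had 1.44, 1.51 and 2.31 CPM in resistant, day 11 (inducer, biotype 1 alone and control), against 6.03, 6.73 and 6.03 CPM in susceptible, day 11. Within day 11 the log2 fold change was -2.00 (SE 0.26, edgeR adjusted p = 0.0129). At day 1 the resistant inducer library had 8.00 CPM and the resistant control library 2.32 CPM, against 1.54 and 3.52 CPM in susceptible. As in Glyma.13G181500, the library labelled resistant, control, day 1 was low.

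Glyma.13G193400 and Glyma.13G185400 were lower in resistant, day 11 but had few counts. Glyma.13G193400 had 2, 1 and 3 counts in resistant, day 11 (inducer, biotype 1 alone and control), against 18, 36 and 12 counts in susceptible, day 11. Glyma.13G185400 had 1, 0 and 0 counts in resistant, day 11, against 20, 10 and 8 in susceptible, day 11, and at day 1 it had 9 and 17 in resistant (inducer and control), against 0 and 0 in susceptible. Over the 5 libraries of resistant, day 11 and susceptible, day 1 this came to 1 count, against 64 counts over the other 5. Glyma.13G185400 exceeded 0.5 CPM only in susceptible, inducer, day 11 (0.855 CPM) and resistant, control, day 1 (0.691 CPM). Glyma.13G193400 exceeded it only in the libraries labelled susceptible, day 11 and in resistant, inducer, day 1. Both genes were thus retained only through libraries of their high side, so their differences and calls are description and not support. With so few counts, fitted fold changes of these genes move with the treatment of zeros in the model and are not bounds.

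Glyma.13G186300 was higher in resistant, day 11. It had 9.08, 9.16 and 8.87 CPM there (inducer, biotype 1 alone and control), against 3.46, 5.32 and 3.39 CPM in susceptible, day 11. Its log2 fold change was 1.05 both within day 11 (SE 0.20, edgeR adjusted p = 0.0279) and over all 10 libraries (SE 0.19, edgeR adjusted p = 0.0741). At day 1 the order was turned, with 5.30 and 4.07 CPM in resistant (inducer and control), against 6.93 and 7.81 CPM in susceptible.

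Glyma.13G189700 had the widest range of the window, 19.8-fold. It had 18.5, 21.9 and 12.7 CPM in resistant, day 11 (inducer, biotype 1 alone and control), against 5.09, 5.78 and 0.628 CPM in susceptible, day 11, and 4.04 and 1.06 CPM in resistant, day 1 (inducer and control), against 7.72 and 13.3 CPM in susceptible, day 1. The control library was the lowest of the 3 in both cultivars at day 11. Within day 11 the log2 fold change was 2.39 (SE 0.50, edgeR adjusted p = 0.0372).

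Glyma.13G181400, Glyma.13G182000 and Glyma.13G197500 were called with smaller differences. Glyma.13G181400 had 6.10 to 7.75 CPM in resistant, day 11, against 2.30 to 3.33 CPM in susceptible, day 11 (log2 fold change within day 11 1.11, SE 0.21). Glyma.13G182000 had 29.4 to 38.2 CPM, against 14.5 to 19.8 CPM (log2 fold change 0.78, SE 0.15). Glyma.13G197500 had 19.6 to 22.4 CPM, against 10.1 to 12.4 CPM (log2 fold change 0.81, SE 0.16). For all 3 genes the groups lay apart at day 11, and at day 1 the libraries labelled susceptible were the higher ones. Values of Glyma.13G181400 and Glyma.13G197500 were fractional in all 10 libraries, a mark of reads divided between transcripts, whereas those of Glyma.13G182000 were whole in all of them.

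Within day 1 the comparison rested on 2 libraries against 2, which part still more readily by order alone. Its counts are therefore not comparable with those of day 11. The libraries labelled resistant did not overlap those labelled susceptible in 27 window genes (21.1%), against 20.6% of all genes. Of the 27, 7 were higher and 20 lower in resistant, against 2561 higher and 5160 lower among all genes. With TMM library sizes there were 36 (28.1%, against 22.7% of all), of which 13 were higher and 23 lower. The window share was thus near the background with plain totals and above it with TMM, with no test of the difference. edgeR called 0 window genes and 50 genes in all (0.133%), and DESeq2 called 0 window genes and 352 genes in all (0.939%). An unadjusted p under 0.05 in edgeR was found in 7 window genes (5.47%, against 4.18% of all), and in 21 (16.4%, against 22% of all) without the library labelled resistant, control, day 1. The smallest p values were those of Glyma.13G185400 (log2 fold change 6.93, SE 1.76, edgeR adjusted p = 0.681), Glyma.13G189700 (log2 fold change -2.37, SE 0.74, edgeR adjusted p = 0.901) and Glyma.13G197500 (log2 fold change -0.68, SE 0.23, edgeR adjusted p = 0.989).

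The next comparison was whether the cultivar difference itself differed between the days. The fitted cultivar difference had opposite signs at day 11 and day 1 in 84 of the 128 window genes (65.6%, against 74.6% of all genes) and the same sign in 44. The count was 99 (77.3%, against 78.5% of all) without the library labelled resistant, control, day 1 and 63 (49.2%, against 46.6% of all) without the one labelled resistant, inducer, day 1. In 13 window genes (10.2%), against 9.41% of all genes, the 5 libraries of resistant, day 11 and susceptible, day 1 did not overlap the 5 of susceptible, day 11 and resistant, day 1. With TMM library sizes 9 were higher and 4 lower of 13 (8.4% of all genes). With plain totals 11 of the 13 were higher in the first 5 and 2 lower, against 2600 higher and 927 lower among all genes. They were Glyma.13G181400, Glyma.13G182000, Glyma.13G183800, Glyma.13G184000, Glyma.13G184500, Glyma.13G186300, Glyma.13G187100, Glyma.13G189700, Glyma.13G193200, Glyma.13G196600 and Glyma.13G197500, which were higher, and Glyma.13G185400 and Glyma.13G193400, which were lower. Without the library labelled resistant, control, day 1 there were 23 (18%, 14 higher and 9 lower), against 26.3% of all genes (4584 higher and 5258 lower). The window share was thus near the background with all libraries and below it without that library.

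**Figure D3:**
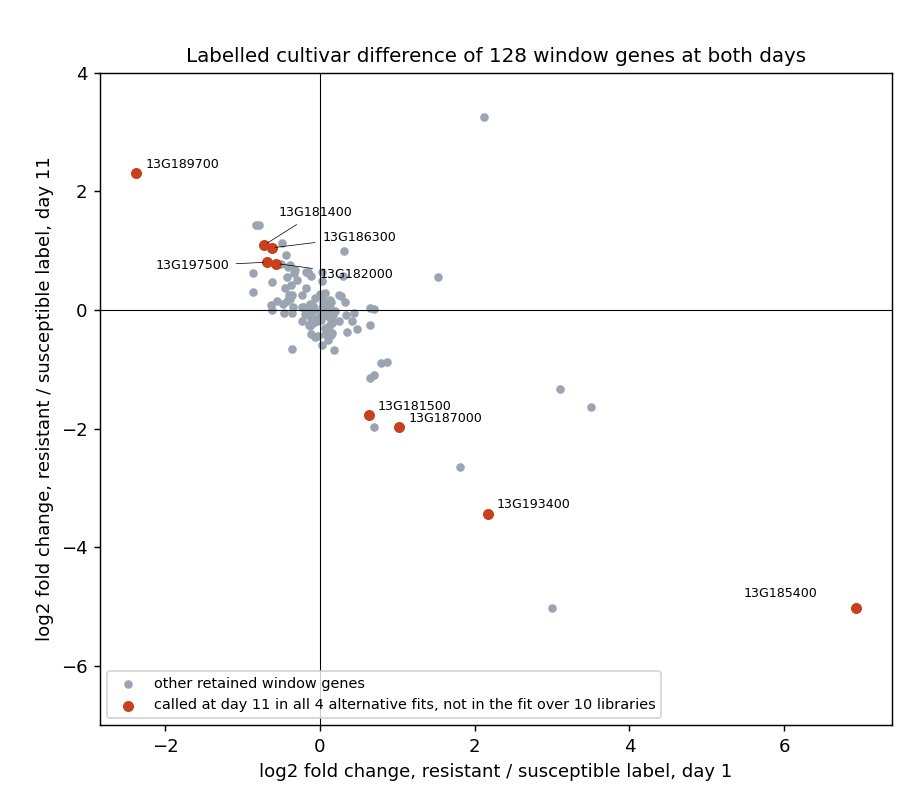
Fitted log2 fold change of the resistant over the susceptible label at day 1 (horizontal) and at day 11 (vertical) for the 128 window genes, from edgeR over all 10 libraries. Red points are the 9 genes called at day 11 in all 4 alternative fits that called any window gene. They lie in the quadrants of opposite sign, as do 84 of the 128 genes.

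The interaction test gave 0 window genes in edgeR with all 10 libraries, against 300 genes in all (0.801%). In simulated data this fit recovered 3.0% of 4-fold interaction changes, so 0 calls do not show that differences were absent. At an unadjusted p under 0.05 there were 21 window genes, 13 with a positive and 8 with a negative term (16.4%, against 23.3% of all). DESeq2 called 14 window genes, 8 positive and 6 negative, beside 11.7% of all genes. edgeR with only the interaction and treatment as terms called 15 window genes, 10 positive and 5 negative, beside 9.53% of all genes. edgeR without the library labelled resistant, control, day 1 called 22 window genes, 10 positive and 12 negative, beside 21.7% of all genes, whereas without the library labelled resistant, inducer, day 1 it called 0, beside 0.691% of all genes, with a smallest adjusted p of 0.0501 among window genes. The call therefore depended on which library of resistant, day 1 was kept.

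Of all alternatives run, the first 3 of these were the only ones in which the interaction test called any window gene. Agreement among them is therefore not support for a gene. Counts over all genes for any or all 3 fits were not computed. Those of the window are therefore not a result about the window. Of 26 window genes called in any of the 3, 10 were called in all 3. They were the 9 genes described above for day 11 and Glyma.13G180900, which had 12.8, 11.0 and 8.54 CPM in resistant, day 11 (inducer, biotype 1 alone and control), against 6.28, 7.73 and 4.14 CPM in susceptible, day 11. At day 1 Glyma.13G180900 had 8.96 (inducer) and 5.45 CPM (control) in resistant, against 9.89 and 9.21 CPM in susceptible, so the inducer libraries lay closer together than the controls. In the fit over all 10 libraries the smallest p among window genes was that of Glyma.13G186300, with an interaction term of 1.67 on the log2 scale (SE 0.30, edgeR adjusted p = 0.0625). Glyma.13G185400 followed with -11.95 (SE 2.08, edgeR adjusted p = 0.0731), a term that combines 2 groups near 0 counts. The third was Glyma.13G197500 with 1.49 (SE 0.30, edgeR adjusted p = 0.0794).

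Day 11 and day 1 did not part the window when the cultivars were averaged. In no window gene (0 of 128) did the 6 libraries of day 11 lie apart from the 4 of day 1, against 0.101% of all genes. edgeR called 0 window genes and 0 in all (0%), and no window gene (0 of 128) reached an unadjusted p under 0.05, against 1.01% of all genes. Without the library labelled resistant, inducer, day 1, 11 window genes did so (8.59%, against 12.7% of all), and 0 were called. DESeq2 called 0 window genes and 6 genes in all (0.016%). The mean day difference was within ±0.5 on the log2 scale for 117 of 128 genes. The smallest p values were those of Glyma.13G197500 (log2 fold change -0.36, SE 0.17), Glyma.13G182300 (log2 fold change -0.90, SE 0.42) and Glyma.13G189200 (log2 fold change 0.33, SE 0.17), each with an edgeR adjusted p of 1.

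The treatment comparisons addressed the response to the aphids. With all libraries, edgeR called 0 window genes for the inducer against control (0% of all genes). At an unadjusted p under 0.05 there were 7 window genes (5.47%, against 7.61% of all). It also called 0 for biotype 1 alone against control (0% of all), with 6 window genes at that p (4.69%, against 4.08% of all). For the inducer against biotype 1 alone it called 0 (0% of all), with 1 window gene at that p (0.781%, against 0.683% of all). DESeq2 called 0 window genes in each of the 3, beside 0.424%, 0.0294% and 0.00534% of all genes. In the first of these it gave an adjusted p for 110 of the 128 window genes and left the others without one. The fitted difference between inducer and control lay between -1.05 and 0.97 on the log2 scale, and was within ±0.5 for 115 of the 128 genes. The comparisons with control share the control libraries of day 11.

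Glyma.13G189200 was the window gene with the smallest p for the inducer. It had 9.94 and 8.33 CPM in resistant (day 11 and day 1) and 7.39 and 6.78 CPM in susceptible with the inducer, and 8.13 (resistant) and 9.47 CPM (susceptible) with biotype 1 alone. The controls had 5.82 and 2.76 CPM in resistant (day 11 and day 1) and 4.94 and 4.58 CPM in susceptible. All 6 infested libraries thus exceeded the 4 controls. Its log2 fold change was 0.74 for the inducer against control (SE 0.17, edgeR adjusted p = 0.648) and 0.61 for biotype 1 alone against control (SE 0.22, edgeR adjusted p = 0.963), which did not pass.

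A second gene, Glyma.13G192200, had 48.4 to 64.5 CPM in the 6 infested libraries and 34.8 to 44.5 CPM in the 4 controls. With Glyma.13G189200 it made up the 2 window genes (1.56%) without overlap between infested and control libraries, against 2.9% of all genes. Both were higher in the infested libraries, against 594 higher and 491 lower among all genes. With TMM library sizes there were 4 such genes (3.12%, against 3.44% of all), 2 higher and 2 lower.

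Lower values with aphids were seen in Glyma.13G194000 and Glyma.13G199600. Glyma.13G194000 had 1.83 and 3.53 CPM in resistant (day 11 and day 1) and 2.99 and 1.42 CPM in susceptible with the inducer, 2.34 (resistant) and 2.00 CPM (susceptible) with biotype 1 alone, and 6.23 and 4.15 CPM in resistant and 3.22 and 4.37 CPM in susceptible controls (day 11 and day 1). The infested libraries overlapped the controls in the library labelled resistant, inducer, day 1. The log2 fold change was -1.05 for the inducer (SE 0.32, edgeR adjusted p = 0.648) and -1.30 for biotype 1 alone (SE 0.43, edgeR adjusted p = 0.963). Glyma.13G199600 had 6.27 to 9.59 CPM with the inducer and 10.2 to 13.7 CPM in controls (log2 fold change -0.71, SE 0.23, edgeR adjusted p = 0.648), with 10.6 CPM in resistant and 6.69 CPM in susceptible for biotype 1 alone. Among the other genes singled out by their p, Glyma.13G190000 had a log2 fold change of 0.95 (SE 0.35) for biotype 1 alone against control and -0.58 (SE 0.35) for the inducer against biotype 1 alone. For the inducer against biotype 1 alone, Glyma.13G183100 had 1.20 (SE 0.50) and Glyma.13G193600 had 0.41 (SE 0.20).

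**Figure D4:**
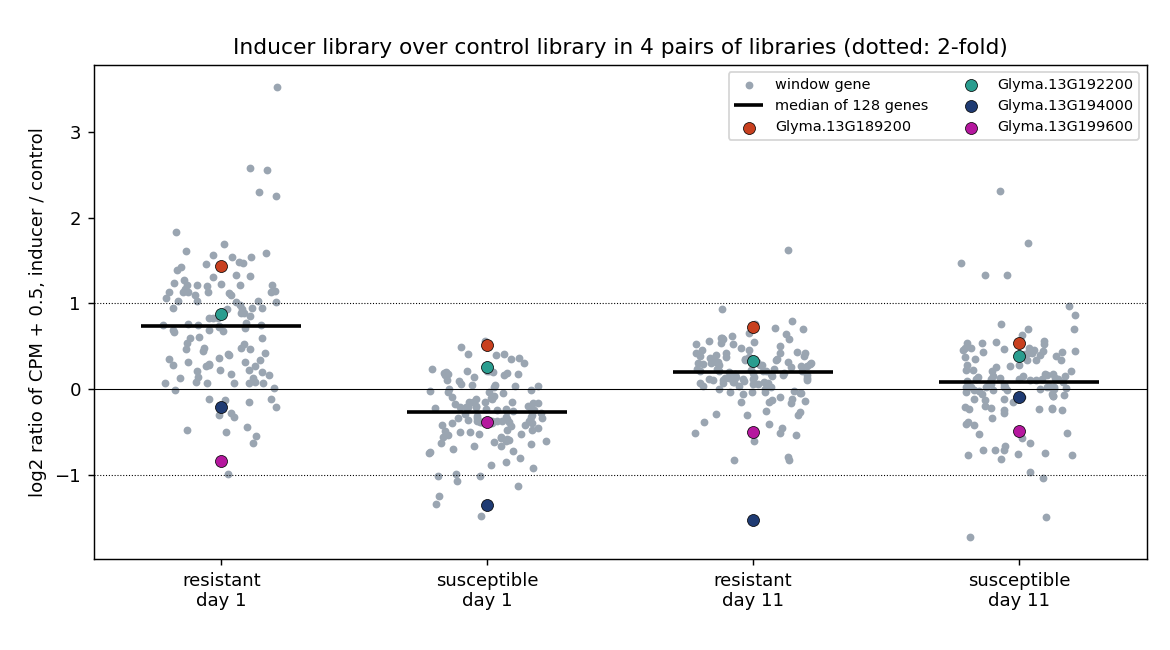
Log2 ratio of CPM + 0.5 of the inducer library over the control library for the 128 window genes in the 4 pairs of libraries, with bars at the medians and dotted lines at 2-fold. The median is 0.739 in the pair labelled resistant, day 1; Glyma.13G189200 and Glyma.13G192200 are above 0 and Glyma.13G194000 and Glyma.13G199600 below 0 in all 4 pairs.

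Pairs of single libraries differed in how many window genes passed 2-fold, with no test possible. In resistant, day 1 the inducer library was at least 2-fold above the control library in 45 window genes and below it in 0, against 28.2% higher and 6.48% lower among all genes. With TMM library sizes 15 were higher and 6 lower (11.7% and 4.69%), against 14.2% and 13.9% of all genes. That scaling moved the median log2 ratio of all genes to 0.04 in this pair, against 0.53 with plain totals. The scaling also moved this median by over 0.1 in susceptible, day 1 (to -0.012, against -0.19 with plain totals), in resistant, day 11 (to 0, against 0.11) and for biotype 1 alone in susceptible (to 0.028, against 0.26). In susceptible, day 1, 0 window genes were higher and 8 lower (1.72% and 6.14% of all genes). In resistant, day 11, 1 was higher and 1 lower (2.31% and 3.65% of all). In susceptible, day 11, 5 were higher and 3 lower (5.4% and 4.38% of all). The pair of resistant, day 1 thus held most of the differences. Its control had the lowest TMM factor of the 10 libraries and its inducer library the highest (0.772 and 1.15). The part of either library in these differences was not tested.

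No window gene (0 of 128) passed 2-fold in the same direction in all 4 pairs, against 0.0294% of all genes. In 11 window genes (8.59%) the inducer library was above the control in all 4 pairs, against 9.11% of all. In 2 window genes (1.56%), Glyma.13G194000 and Glyma.13G199600, it was below in all 4, against 5.47% of all. The log2 ratios of Glyma.13G189200 in the 4 pairs were 0.72 (resistant) and 0.54 (susceptible) at day 11 and 1.44 (resistant) and 0.52 (susceptible) at day 1.

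At day 11 the pairs named few genes. In resistant, Glyma.13G183200 was above control by 1.63 on the log2 scale with the inducer and by 1.74 with biotype 1 alone, and Glyma.13G194000 was below it, with log2 ratios of -1.53 and -1.24. In susceptible, Glyma.13G189700 was above the control library by 2.31 with the inducer and 2.48 with biotype 1 alone, and Glyma.13G183000 was below it, with log2 ratios of -1.72 and -1.53. Glyma.13G183000 had only 2 and 4 counts there, against 34 in the control. Glyma.13G183500 was also below the control, with log2 ratios of -1.48 and -1.26. Other genes of susceptible passed 2-fold with only 1 of the treatments and are not named. Both treatments are set against the same control library in each cultivar, so these values are not independent. For biotype 1 alone, 1 window gene was higher and 1 lower in resistant (1.48% and 2.19% of all genes), and 5 were higher and 3 lower in susceptible (6.11% and 3.02% of all). Under TMM library sizes 2 were higher and 3 lower in susceptible (2.78% and 5.37% of all).

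Glyma.13G183200 went opposite ways in the cultivars at day 11. It had 57.9 and 62.9 CPM with the inducer and biotype 1 alone in resistant, against 18.4 CPM in the resistant control, and 53.2 and 28.3 CPM in susceptible, against 82.7 CPM in the susceptible control. At day 1 the inducer libraries had 49.6 (resistant) and 49.4 CPM (susceptible), against 32.5 and 34.9 CPM in the controls. The infested libraries of both cultivars lay between the 2 controls of day 11. A difference of the responses between the cultivars was not tested.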

How the data were processed

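Leaf RNA was sequenced in 10 libraries (TruSeq Stranded mRNA kit, Illumina NextSeq, 75 cycles), each pooled from 3 replicates. The authors checked reads with FastQC 0.11.3 and MultiQC 1.3, trimmed bases under quality 20 with Trimmomatic 0.36 and quantified them with Salmon 0.9.1 on the primary transcripts of Wm82.a2.v1. They deposited Salmon's estimated counts per gene, without scaling for depth or length and with strand and bias options of Salmon not given in the sources used here. Because Salmon splits reads shared by several transcripts, genes with near-identical copies are uncertain. Values were fractional in every library with a count for 70 window genes (54.7%, against 54.2% of all genes).

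The estimated counts were rounded to whole numbers and CPM was computed from library totals. edgeR 4.0.16 in R 4.3.3 was used for the tests (TMM, robust quasi-likelihood test, Benjamini-Hochberg adjustment over all 37468 genes, threshold 0.05), with DESeq2 1.42.0 as an alternative. The model held cultivar, day, their interaction and treatment. As no condition had a second library, the spread was estimated from 4 residual degrees of freedom, with a common biological coefficient of variation of 0.363. Standard errors were derived from the fold change and its F statistic and are approximate. p-values measure the spread between pooled libraries around this model, not between plants. Pair ratios used CPM + 0.5. The tests were tried on simulated data with 200 changed genes. With all 10 libraries, edgeR recovered 3.0% of 4-fold and 56.0% of 8-fold interaction changes. For the inducer against control it recovered 85.5% and 97.0%. An interaction count of 0 in that fit therefore does not show that differences were absent. Figures were drawn with matplotlib 3.10.9.

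Window genes and rules were chosen with earlier results of these data known. Genes named were the 10 highest by mean CPM, for each of 8 contrasts the called genes or, where fewer than 3 were called, the 3 with the smallest p, any gene with an 8-fold gap, any gene past 2-fold in all 4 inducer pairs, and the first and last gene. Others were named after their values were seen, among them the genes called in alternative fits, without overlap between groups or past 2-fold in a pair. Gene lists by annotation keyword were not described, since 0 identifiers matched the reference table (assembly Glycine_max_v4.0). Alternatives covered tool, normalization, low-count filter, model, subsets of libraries, pseudocount, gap size and each library left out in turn.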

Additional observations from a re-analysis of the deposited data

How the results depend on the processing

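Direction held in every alternative for the window genes chosen for their p, where 342 alternative values stayed on their side of the threshold and 21 passed it, unlike in the fit over 10 libraries. The number of genes called depended on the fit. For the day by cultivar interaction 0 window genes were called in the fit over 10 libraries, 14 with DESeq2, 15 with the interaction and treatment as the only terms, and 0 to 22 with 1 library left out (22 without resistant, control, day 1). For resistant against susceptible at day 11 these numbers were 0 over 10 libraries, 13 with DESeq2, 12 within day 11 and 0 to 16 with 1 library left out. The highest value, 16, came without resistant, control, day 1 and without resistant, inducer, day 1. Counts past 2-fold in a pair depended on the pseudocount and scaling. For the inducer in resistant, day 1 the count was 45, against 21 with TMM library sizes and 26 with a pseudocount of 1 CPM. In susceptible, day 1 it was 8, against 13 with a pseudocount of 0.1 CPM and 4 with 1 CPM. In resistant, day 11 it was 2, against 6 with 0.1 CPM, and in susceptible, day 11 it was 8, against 13 with 0.1 CPM and 5 with 1 CPM. For biotype 1 alone it was 2 in resistant, against 7 with 0.1 CPM, and 8 in susceptible, against 13 with 0.1 CPM and 5 with TMM library sizes. Without a filter on low values the window held 201 rows, 171 of them with a count in some library. With TMM library sizes, an alternative chosen after seeing the data, 4 genes in place of 2 parted infested from control libraries. The other 6 contrasts gave 0 called window genes in every alternative run, although leaving out 1 library moved the numbers at an unadjusted p under 0.05 in edgeR. For the inducer against control they went from 2 without resistant, inducer, day 11 (1.56%, against 3.46% of all genes) to 11 without susceptible, inducer, day 1 (8.59%, against 10.4% of all). For biotype 1 alone against control they went from 0 without susceptible, biotype 1 alone, day 11 (against 0.683% of all) to 8 without susceptible, inducer, day 1 (6.25%, against 4.41% of all). The labels give no replicate numbers that pair libraries, and the model compared treatments within cultivar and day. Levels under 3 counts (0.117 to 0.128 CPM) rest on too few reads to order libraries at this depth.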

Other observations

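Glyma.13G183000 and Glyma.13G183500, chosen after their values were seen, were high in the same libraries. In resistant, inducer, day 1 Glyma.13G183000 had 146 counts, in susceptible, control, day 11 it had 34, and in the other 8 libraries it had 0 to 13. Glyma.13G183500 had 92 and 50 counts in the same libraries, against 2 to 18 counts in the other 8. The same 2 libraries were the highest for Glyma.13G186400 (18 and 14 counts) and Glyma.13G196200 (16 and 9 counts). The 2 high libraries differ in labelled cultivar, treatment and day. Both lie on the side of susceptible, day 11 and resistant, day 1 in the split that parted 9.41% of all genes. No test was run on these values.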
